A study of Mus musculus with 8 samples.

Results

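The transcripts of 10 NF-κB subunits and inhibitors were followed in mouse CD8+ T cells under persistent TCR stimulation, with or without diisopropylamine dichloroacetate (DADA), an inhibitor of pyruvate dehydrogenase kinase. The members were chosen by symbol: the subunits *Nfkb1*, *Nfkb2*, *Rel*, *Rela* and *Relb*, the cytoplasmic inhibitors *Nfkbia*, *Nfkbib* and *Nfkbie*, the nuclear regulator *Nfkbiz*, and *Tnfaip3*, which encodes A20. These are 10 of the 22520 genes and assembled transcripts in the table, and each of the 10 was among the 10666 genes that reached 1 FPKM (fragments mapped to a transcript, scaled to its length and to the size of the library) in at least 4 of the 8 libraries. CD8+ T cells purified from the spleens of wild-type mice were stimulated with anti-CD3 and anti-CD28 antibodies and IL-2 for 6 days, and 40 µM DADA or the same volume of the solvent DMSO was present from day 3. The 4 DMSO libraries carry the label Ctrl and the 4 DADA libraries the label DADA. Both groups received the stimulation, no unstimulated cells were analysed here, and the labels give no age or sex. The methods list male C57BL/6J mice of 6 to 8 weeks among other mice, without saying which gave these cells. The libraries are called biological replicates, but nothing states whether each came from its own mouse, so the p-values measure the spread between these libraries.

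NF-κB is a family of transcription factors that bind DNA as dimers. *Nfkb1* and *Nfkb2* encode the precursors p105 and p100, which are processed to the DNA-binding subunits p50 and p52, while the ankyrin repeats of the unprocessed precursors hold other subunits in the cytoplasm. RelA, c-Rel and RelB carry the transactivation domains. IκBα, IκBβ and IκBε retain dimers in the cytoplasm until the IκB kinase (IKK) marks them for degradation, and in T cells the TCR and CD28 reach IKK through PKCθ, BCL10 and MALT1. NF-κB induces *Nfkbia*, *Tnfaip3*, *Nfkb1* and *Nfkb2* themselves, and A20 is a ubiquitin-editing enzyme that dampens the signal upstream of IKK.

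Because members of this family are known targets of NF-κB, their promoters were searched for the κB consensus motif of 10 letters on both strands. The RefSeq promoter table (build GRCm38.p6), which spans 250 bases before to 50 bases after each start, held 10 promoters for 7 of the members, and *Nfkb1*, *Relb* and *Nfkbiz* had no entry. The motif was found in 7 of these 10 promoters and in 8.5% of the 32851 promoters of the table. Counted by gene, 5 of the 7 members had a match in at least one promoter (*Nfkb2*, *Rel*, *Nfkbia*, *Nfkbie* and *Tnfaip3*), as did 12.2% of the 8216 tested genes with an entry, and *Rela* and *Nfkbib* had none in these windows. The 3 entries of *Nfkb2* include a pair that overlaps and shares 1 match. A match describes these letters only and was not tested as a binding site. The 4 promoters below are shown because they belong to 2 members that were higher with DADA and hold the motif, 1 that was lower and holds it, and 1 that was higher without it. Each is written 5′ to 3′ on the strand of the gene, with the bases of κB matches in capitals.
Nfkbia, chr12:55492598-55492897, minus strand: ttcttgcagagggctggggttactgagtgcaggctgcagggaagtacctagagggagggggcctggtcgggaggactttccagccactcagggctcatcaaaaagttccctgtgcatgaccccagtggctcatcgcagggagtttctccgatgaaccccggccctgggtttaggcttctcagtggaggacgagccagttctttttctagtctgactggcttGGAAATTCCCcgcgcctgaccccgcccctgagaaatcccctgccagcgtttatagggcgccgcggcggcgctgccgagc
Tnfaip3, chr10:19015361-19015660, minus strand: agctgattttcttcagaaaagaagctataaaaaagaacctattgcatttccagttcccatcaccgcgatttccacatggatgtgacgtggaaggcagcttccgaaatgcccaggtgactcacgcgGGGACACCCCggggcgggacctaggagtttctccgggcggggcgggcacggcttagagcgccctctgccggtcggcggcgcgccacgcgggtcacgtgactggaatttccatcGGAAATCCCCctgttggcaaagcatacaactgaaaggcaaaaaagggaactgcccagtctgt
Nfkb2, chr19:46304487-46304786, plus strand: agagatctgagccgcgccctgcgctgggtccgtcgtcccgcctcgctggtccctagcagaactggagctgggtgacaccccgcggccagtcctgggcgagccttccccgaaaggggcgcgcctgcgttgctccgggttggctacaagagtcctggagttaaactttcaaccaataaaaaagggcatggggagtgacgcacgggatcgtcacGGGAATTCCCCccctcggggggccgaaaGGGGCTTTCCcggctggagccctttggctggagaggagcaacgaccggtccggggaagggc
Rela, chr19:5637291-5637590, plus strand: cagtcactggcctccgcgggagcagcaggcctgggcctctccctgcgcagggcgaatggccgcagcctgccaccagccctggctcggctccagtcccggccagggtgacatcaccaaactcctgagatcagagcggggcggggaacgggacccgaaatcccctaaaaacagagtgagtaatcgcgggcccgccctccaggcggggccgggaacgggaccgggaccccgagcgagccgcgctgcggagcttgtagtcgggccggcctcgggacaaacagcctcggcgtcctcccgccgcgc
For *Nfkb2* and *Tnfaip3*, the promoter shown is entry 1. Entries 2 and 3 of *Nfkb2* held matches as well, and entry 2 of *Tnfaip3* held 0. In the promoters shown, the match of *Nfkbia* began 29 bases before the start, and those of *Tnfaip3* 125 and 12 bases before it. The 3 matches in the *Nfkb2* promoter shown, of which 2 overlap, began 39, 38 and 11 bases before the start. These coordinates belong to the promoter table, whereas the processing notes of the submitters list GRCm39 beside GRCh38, so no coordinate is given for the measured transcripts.

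In the libraries, the 2 precursor genes fell while the inhibitors *Nfkbia*, *Nfkbie* and *Tnfaip3*, the nuclear regulator *Nfkbiz* and the subunit *Rela* rose with DADA, and *Rel*, *Relb* and *Nfkbib* did not pass the test. Thus 7 of the 10 members had an adjusted p-value under 0.05 (limma on log2(FPKM + 1), Benjamini-Hochberg over the 10666 genes tested), 5 of them higher and 2 lower. Among all genes tested, 66.2% were called, 30.9% higher and 35.3% lower, so the share of members called, 7 of 10, was near the background. The same 7 members did not overlap between the groups in any library, as was the case for 60.6% of the genes tested. The members' changes are therefore described one by one, by size and direction.

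*Nfkb1* (ENSMUSG00000028163), the most abundant member, gave 216, 213, 215 and 218 FPKM in DMSO 1 to 4, and 158, 154, 162 and 155 FPKM in DADA 1 to 4. The DADA libraries were all below the DMSO libraries, and the gap was many times the spread within either group. The means were 215 ± 1.95 and 157 ± 3.64 FPKM (SD, n = 4 each), a log2 fold change of -0.45 (standard error 0.0217, adjusted p = 5.25e-08). *Nfkb2* (ENSMUSG00000025225), whose product p100 serves the noncanonical branch, was at 142, 138, 139 and 136 FPKM with DMSO and at 99.3, 96.5, 94.4 and 94.9 FPKM with DADA. Here too the groups lay apart. Its log2 fold change of -0.52 (standard error 0.0238, adjusted p = 3.53e-08) was larger in size than that of 85.2% of the genes tested.

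*Rela* (ENSMUSG00000024927), which encodes the main transactivating partner of p50, moved the other way. It was at 28.4, 28.7, 26.6 and 27.1 FPKM with DMSO and at 37.1, 34.6, 33.6 and 34.7 FPKM with DADA, and every DADA library was above every DMSO library. The log2 fold change was 0.33 (standard error 0.0373, adjusted p = 2.82e-05).

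*Rel* (ENSMUSG00000020275), which encodes c-Rel, a subunit needed for *Il2* transcription in T cells, was at 32.99, 33.4, 33.3 and 34.1 FPKM with DMSO and at 32.5, 31.5, 33.8 and 33.6 FPKM with DADA. The groups overlapped, and the log2 fold change was -0.03 with a 95% confidence interval of -0.09 to 0.04 (adjusted p = 0.458), or 0.01 when each library was rescaled to the same total. *Relb* (ENSMUSG00000002983), the usual partner of p52, was at 28.8, 28.5, 29.2 and 28.4 FPKM with DMSO and spread from 26.5 to 30.97 FPKM with DADA. The log2 fold change of *Relb* was -0.03 with an interval of -0.13 to 0.08 (adjusted p = 0.625), its sign changed with that rescaling to 0.0043, and the highest of the 8 libraries was DADA 1. For these 2 subunits, a change of the size seen in *Nfkb1*, *Nfkb2* or *Rela* lay outside the interval.

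**Figure D1:**
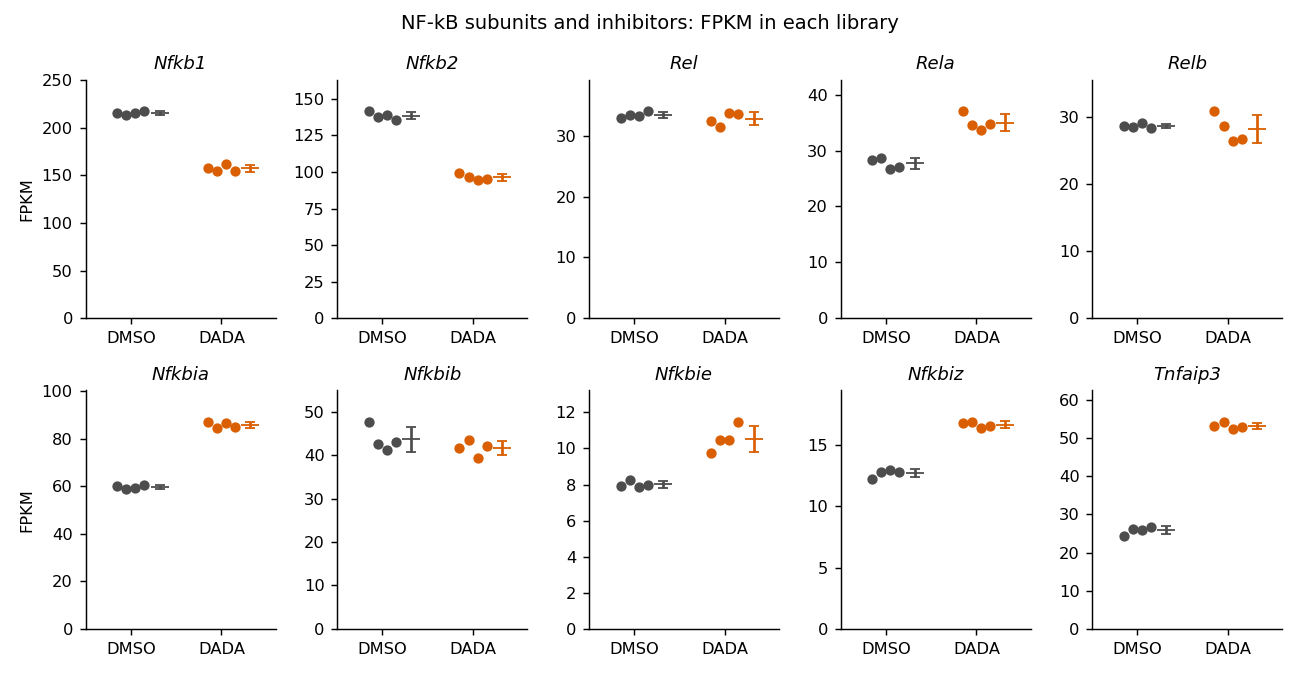
FPKM (vertical axes, each from 0) of the 10 members in the 4 DMSO and 4 DADA libraries, 1 point per library, with the mean and SD of each group beside the points. The groups lie apart for *Nfkb1*, *Nfkb2*, *Rela*, *Nfkbia*, *Nfkbie*, *Nfkbiz* and *Tnfaip3* and overlap for *Rel*, *Relb* and *Nfkbib*.

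Among the cytoplasmic inhibitors, *Nfkbia* (ENSMUSG00000021025), which encodes IκBα, was at 60.3, 58.8, 59.3 and 60.6 FPKM with DMSO. With DADA it was at 87.2, 84.4, 86.8 and 84.9 FPKM, so that the groups were separated by more than 20 FPKM. Its mean rose from 59.7 ± 0.866 to 85.8 ± 1.39 FPKM (SD, n = 4 each), a log2 fold change of 0.52 (standard error 0.0219, adjusted p = 2.16e-08). This is close in size, and opposite in sign, to the change of *Nfkb2*. *Nfkbie* (ENSMUSG00000023947), which encodes IκBε, was the lowest member, at 7.90, 8.27, 7.84 and 7.99 FPKM with DMSO and 9.76, 10.4, 10.5 and 11.5 FPKM with DADA. The DADA libraries were higher but more spread, and the log2 fold change was 0.36 (standard error 0.0479, adjusted p = 9.41e-05).

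*Nfkbib* (ENSMUSG00000030595), which encodes IκBβ, did not follow the other inhibitors past the threshold. It was at 47.7, 42.4, 41.2 and 42.9 FPKM with DMSO and at 41.7, 43.4, 39.3 and 42.0 FPKM with DADA, where DMSO 1 was the highest of the 8 libraries and the others of both groups were mixed. The log2 fold change was -0.06, with an interval of -0.17 to 0.04 (adjusted p = 0.248), and -0.02 without DMSO 1. The intervals of *Nfkbia* (0.47 to 0.56) and *Nfkbie* (0.25 to 0.46) did not reach that of *Nfkbib*, although the difference between genes was not itself tested.

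*Tnfaip3* (ENSMUSG00000019850) had the largest change of the 10 members. It was at 24.4, 26.3, 25.9 and 26.8 FPKM with DMSO and at 53.2, 54.3, 52.3 and 52.9 FPKM with DADA. The lowest DADA library was thus far above the highest DMSO library, and the mean was 2.06 times as high. The log2 fold change was 1.01 (standard error 0.0316, adjusted p = 2.08e-09), larger in size than that of 96.0% of the genes tested. *Nfkbiz* (ENSMUSG00000035356) encodes IκBζ, an inducible nuclear protein that works with p50 at a subset of NF-κB targets. It was at 12.3, 12.8, 12.9 and 12.8 FPKM with DMSO and at 16.8, 16.9, 16.4 and 16.6 FPKM with DADA, which left the groups apart. Its log2 fold change was 0.37 (standard error 0.0304, adjusted p = 2.69e-06).

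A two-sided exact permutation test on the FPKM values gave p = 0.0286 for each of the 7 members that were called. This is the smallest value that 4 against 4 libraries allow over 70 assignments. It is reached whenever the groups do not overlap, as for 60.6% of the genes tested, and so adds no evidence for these members. The exact test gave p = 0.371 for *Rel* and *Nfkbib* and p = 0.743 for *Relb*.

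**Figure D2:**
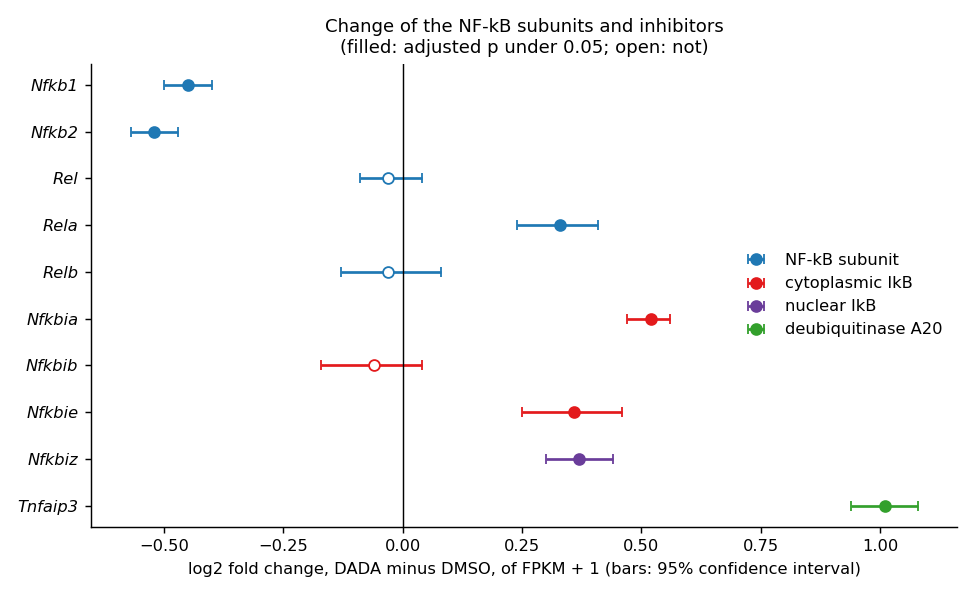
Log2 fold change of FPKM + 1, DADA minus DMSO (horizontal axis), of the 10 members, with 95% confidence intervals from limma as bars. Filled points had an adjusted p-value under 0.05, with *Tnfaip3* farthest to the right at 1.01 and *Nfkb2* farthest to the left at -0.52, and the intervals of *Rel*, *Relb* and *Nfkbib* cross 0.

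FPKM values are scaled to transcript length, so the members can also be set side by side. With DMSO the order from high to low was *Nfkb1*, *Nfkb2*, *Nfkbia*, *Nfkbib*, *Rel*, *Relb*, *Rela*, *Tnfaip3*, *Nfkbiz* and *Nfkbie*. The neighbours *Relb* and *Rela*, and *Rela* and *Tnfaip3*, overlapped in their 4 values, and all other neighbours were apart. With DADA, *Tnfaip3* stood in place 4 instead of place 8, behind *Nfkbia*, and *Rela* stood before *Rel*, with which it overlapped. The 2 precursor genes and *Nfkbia* kept places 1 to 3, and *Nfkbiz* and *Nfkbie* stayed lowest. Replicate libraries were close to each other for most members, with a median coefficient of variation of 2.12% with DMSO and 2.80% with DADA, against 4.89% and 4.63% over all genes tested. The widest were *Nfkbib* with DMSO (6.53%) and *Relb* with DADA (7.34%). The comparison with all genes was not matched for level. All members but *Nfkbiz* and *Nfkbie* had a higher mean FPKM than 73% of the genes tested.

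These shifts changed the make-up of the subunit transcripts, which is given as a description without a test. The 5 subunits summed to 441 to 448 FPKM in the DMSO libraries and to 345 to 358 FPKM in the DADA libraries. *Nfkb1* and *Nfkb2* together held 79.7% ± 0.191 (SD, n = 4) of that sum with DMSO and 72.5% ± 0.548 (SD, n = 4) with DADA. The share of *Rela* was 6.24% ± 0.224 with DMSO and 10.0% ± 0.327 with DADA, while *Rel* and *Relb*, whose own levels did not pass the test, went from 7.54% to 9.40% and from 6.47% to 8.07% of a smaller sum. The ratio of *Nfkb1* to *Rela* was 7.42 to 8.07 with DMSO and 4.25 to 4.83 with DADA. The ratio of *Nfkb2* to *Relb* was 4.77 to 4.93 with DMSO and 3.21 to 3.57 with DADA. Neither ratio overlapped between the groups. For *Nfkb1* to *Rela* this follows from the separation of both genes, and for *Nfkb2* to *Relb* it repeats the fall of *Nfkb2*.

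The cytoplasmic inhibitors *Nfkbia*, *Nfkbib* and *Nfkbie* summed to 108 to 116 FPKM with DMSO and to 137 to 139 FPKM with DADA. *Nfkbia* made up 53.7% ± 1.18 of that sum with DMSO and 62.2% ± 1.20 with DADA (SD, n = 4 each). Set against the summed transcripts of *Rel*, *Rela* and *Relb*, the inhibitors stood at a ratio of 1.24 ± 0.0349 with DMSO and 1.44 ± 0.0384 with DADA. This ratio leaves out the precursor genes *Nfkb1* and *Nfkb2*, whose unprocessed products also retain subunits. The precursors over *Rel*, *Rela* and *Relb* went the other way, from 3.94 ± 0.0461 with DMSO to 2.64 ± 0.0728 with DADA. *Nfkbia* per *Rela* was 2.05 to 2.24 with DMSO and 2.35 to 2.58 with DADA. These are ratios of transcripts, and neither protein nor nuclear NF-κB was measured in these libraries.

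**Figure D3:**
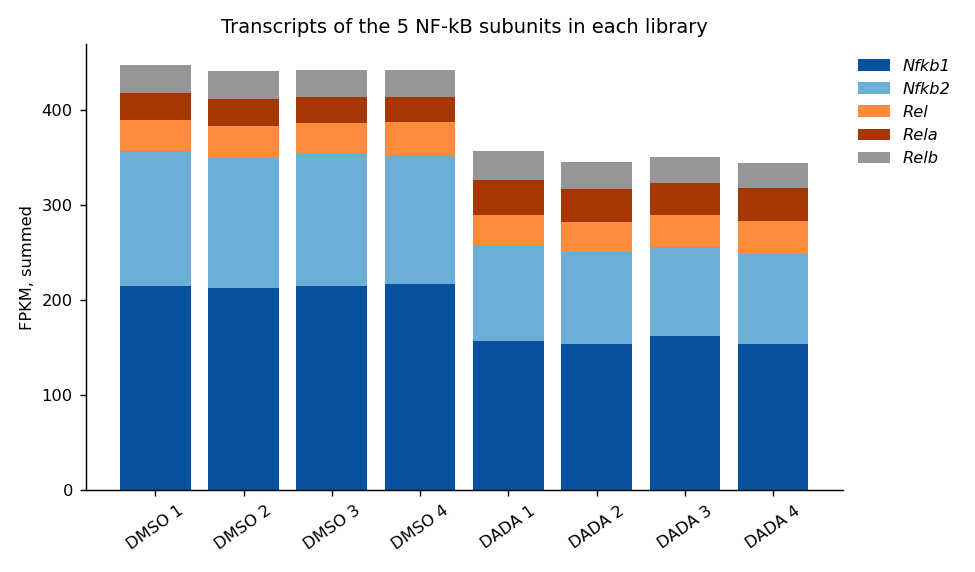
Summed FPKM of the 5 NF-κB subunits (vertical axis from 0) in each of the 4 DMSO and 4 DADA libraries, with 1 colour per gene. The bars reach 441 to 448 FPKM with DMSO and 345 to 358 FPKM with DADA, and the lower *Nfkb1* and *Nfkb2* blocks make up the difference while the *Rela* block is larger.

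Other genes of the pathway were read from the same fit in 7 lists, whose counts stand here beside the 66.2% of all genes that were called and the median log2 fold change of -0.02 over all genes tested. Further IκB proteins and feedback regulators went mostly with *Nfkbia* and *Tnfaip3*: of 18 genes, 11 rose, 2 fell and 5 did not pass, with a median of 0.18. *Tnip3*, which encodes a partner of A20, was at 2.48 to 4.27 FPKM with DMSO and 17.4 to 18.4 FPKM with DADA (log2 fold change 2.11, adjusted p = 6.21e-08). *Bcl3*, a nuclear IκB that binds p50 and p52 dimers, was at 7.08 to 8.23 FPKM with DMSO and 23.1 to 24.8 FPKM with DADA (log2 fold change 1.53, adjusted p = 2.72e-09). Both changes were larger than that of *Tnfaip3*. The 2 genes that fell were *Commd1* (-0.27, adjusted p = 0.00648), whose groups overlapped, and *Rnf11* (-0.19, adjusted p = 6.20e-04), the latter a member of the A20 complex. The falls numbered 3 with quantile normalization, with a block for the replicate number, and without DMSO 1, DADA 1 or DADA 3. *Cyld*, another deubiquitinase of the pathway, named after its values were seen, had a log2 fold change of -0.09 (adjusted p = 0.111).

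Of 22 genes of IKK and its canonical activation, 8 rose, 4 fell and 10 did not pass, with a median of 0.04, and rescaling to the same total gave 10 and 2. The count of falls rested on single libraries, as it was 2 without DMSO 1, DMSO 3 or DADA 2, and 2 also with no filter. The 2 largest falls, called in each alternative, were in *Map3k7*, which encodes the IKK-activating kinase TAK1, at 29.8 to 30.6 FPKM with DMSO and 22.8 to 24.4 FPKM with DADA (log2 fold change -0.35, adjusted p = 2.30e-06), and *Chuk*, which encodes IKKα, at 44.7 to 48.0 and 36.6 to 39.5 FPKM (log2 fold change -0.29, adjusted p = 1.96e-05). *Ikbkb* and *Ikbkg*, the other 2 subunits of IKK, named after their values were seen, did not pass (adjusted p = 0.814 and 0.951). The largest rises were in *Tradd* (0.34) and *Ube2v1* (0.32). On the arm from the TCR, 9 of 12 genes rose and 1 fell, with a median of 0.20, in a list that mixes activators with negative regulators. *Prkcq*, which encodes PKCθ, rose from 31.6 ± 0.997 to 49.4 ± 1.10 FPKM (SD, n = 4 each, log2 fold change 0.63, adjusted p = 4.26e-08), and *Cd28* rose by 0.50. *Carmil2*, which acts in CD28 costimulation, was the gene that fell, from 24.9 ± 0.675 to 16.7 ± 0.625 FPKM (log2 fold change -0.55, adjusted p = 3.33e-07). *Bcl10* and *Malt1*, named after their values were seen, rose by 0.18 and 0.15 on the log2 scale. The negative regulators *Cblb*, a ubiquitin ligase, and *Dgka*, a diacylglycerol kinase, named in the same way, rose by 0.49 (adjusted p = 2.75e-08) and 0.43 (adjusted p = 1.24e-07).

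The noncanonical list is short, and 2 of its 4 genes rose. *Birc2*, which encodes cIAP1, rose from 20.7 ± 1.17 to 28.1 ± 1.17 FPKM (SD, n = 4 each, log2 fold change 0.43, adjusted p = 1.37e-05). *Traf2* had a log2 fold change of 0.17 (adjusted p = 0.0274), and its groups overlapped, at 14.3 to 17.03 FPKM with DMSO and 16.98 to 19.16 FPKM with DADA. It was no longer called without DMSO 2 (0.17), DMSO 4 (0.12), DADA 1 (0.15) or DADA 4 (0.15), which left 1 gene called in each case. *Map3k14*, which encodes the NF-κB-inducing kinase, and *Traf3*, named after their values were seen, did not pass (0.07, adjusted p = 0.184, and 0.05, adjusted p = 0.277).

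Most of the tested receptors upstream rose, and the ligands went both ways. Of 22 receptors of the TNF and IL-1 families and Toll-like receptors, 15 passed the filter. Of these, 10 rose, 1 fell and 4 did not pass, with a median of 0.22, or 9 and 3 after quantile normalization. With no filter, 12 of the 22 rose and 3 fell, with a median of 0.13. Without DADA 1 or DADA 3, 2 of the 15 fell. *Tnfrsf8*, which encodes CD30, was at 8.19 to 8.94 FPKM with DMSO and 35.9 to 37.3 FPKM with DADA (log2 fold change 1.97, adjusted p = 3.31e-11). *Tlr7* was below 1 FPKM in every DMSO library and at 1.71 to 2.15 FPKM with DADA (log2 fold change 1.16, or 2.27 with a pseudocount of 0.1), so it entered the test through the DADA libraries alone. *Il18rap*, a chain of the IL-18 receptor, fell from 10.4 ± 0.557 to 6.22 ± 0.284 FPKM (log2 fold change -0.66, adjusted p = 9.72e-07). Of 13 ligands of the TNF superfamily, 10 passed the filter, and 5 rose, 3 fell and 2 did not pass, with a median of 0.21. With no filter, 5 of the 13 rose and 5 fell, and the median turned to -0.05. It was also -0.05 for the 7 ligands with a mean of at least 5 FPKM, of which 3 rose and 3 fell. Of the 10 ligands, 4 fell with quantile normalization, with a block for the replicate number, and without DADA 3. *Tnfsf14*, which encodes LIGHT, and *Tnfsf10*, which encodes TRAIL, rose by 1.14 and 1.12. *Tnfsf11*, which encodes RANKL, fell from 21.6 ± 0.143 to 8.42 ± 0.522 FPKM (log2 fold change -1.27, adjusted p = 2.77e-09), and *Tnfsf8*, the ligand of CD30, had a log2 fold change of -0.86.

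Of 38 genes known as NF-κB targets, 32 passed the filter, and of these 21 rose, 9 fell and 2 did not pass, with a median of 0.48. With no filter, 21 of the 38 rose and 10 fell, with a median of 0.17. *Il2*, one of the 21, stayed below 1 FPKM in every DMSO library and so passed the filter through the DADA libraries alone. *Ccl5* rose from 10.97 ± 1.06 to 141 ± 7.38 FPKM (SD, n = 4 each, log2 fold change 3.57, adjusted p = 3.74e-11) and *Cxcl10* from 2.61 ± 0.484 to 33.9 ± 1.29 FPKM (3.28, adjusted p = 4.86e-10). With a pseudocount of 0.1 both log2 fold changes were 3.67. *Csf2*, which encodes GM-CSF, fell from 83.1 ± 2.07 to 16.4 ± 0.837 FPKM (log2 fold change -2.27, adjusted p = 3.04e-11), and *Il6* fell from 10.4 ± 0.719 to 1.84 ± 0.313 FPKM (log2 fold change -2.01, adjusted p = 1.72e-08). Thus genes placed downstream of the same factors had large changes in opposite directions. Several of them are also targets of other factors, interferon-induced ones in the case of *Cxcl10*, and 3 genes of this list (*Bcl3*, *Nfkbid* and *Tnip1*) are in the feedback list as well. The copies *Bcl2a1a*, *Bcl2a1b* and *Bcl2a1d* are near-identical, so their fragments can be split between them and their counts among the falls are uncertain.

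**Figure D4:**
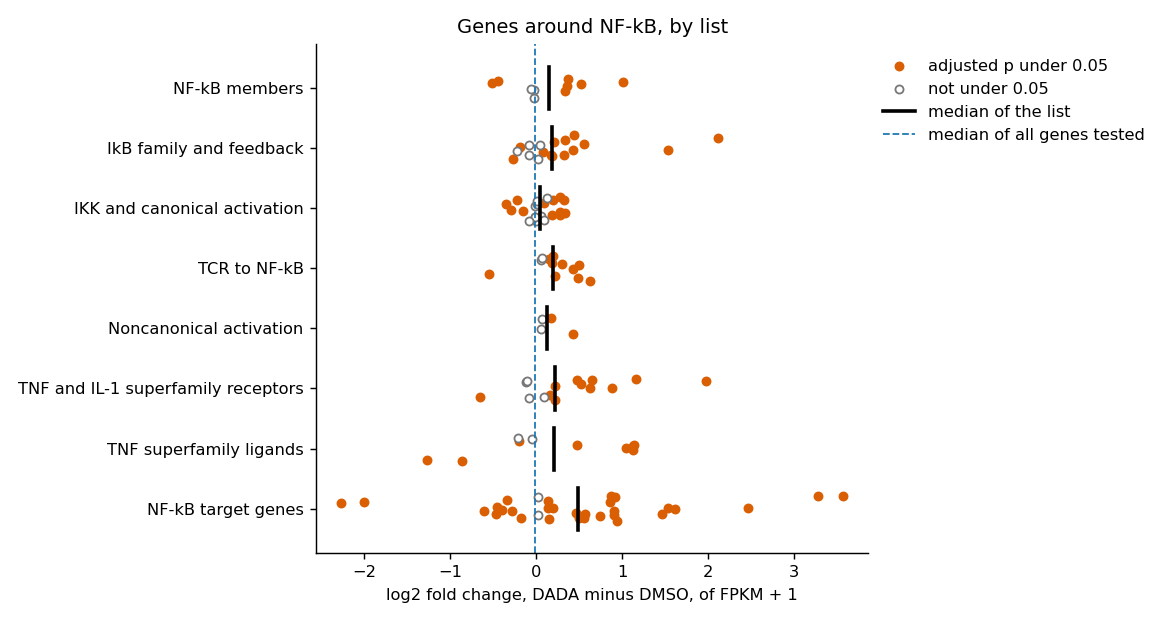
Log2 fold change of FPKM + 1, DADA minus DMSO (horizontal axis), of each tested gene in the 10 members and the 7 pathway lists, 1 point per gene. Orange points had an adjusted p-value under 0.05, black bars mark the median of each list and the dashed line that of all genes tested at -0.02, and the NF-κB target genes spread widest, from *Csf2* at -2.27 to *Ccl5* at 3.57.

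The genes whose profile over the 8 libraries was most like that of a member were read for the 3 members with the largest changes, by Pearson correlation of log2(FPKM + 1). For *Tnfaip3* these were *Kremen2*, *Mt1* and *Herc6* (r = 0.999 each), for *Nfkb2* they were *Cad*, *Fanca* and *Fkbp4* (r = 0.999, 0.998 and 0.998), and for *Nfkbia* they included *Galnt6* and *Xdh* (r = 0.999 each). The 8 libraries fall into 2 groups that most of these genes separate, so a high r is not particular to the genes named. An r over 0.99 was reached by 483 genes with *Tnfaip3*, 234 with *Nfkb2* and 480 with *Nfkbia*. The genes read were the 10501 tested genes that are not assembled transcripts, without the members. *Kremen2* had a mean of 0.342 ± 0.127 FPKM with DMSO and 8.31 ± 0.383 FPKM with DADA (SD). It thus passed the filter through the DADA libraries alone.

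The libraries carried the transcripts of CD8 T cells. Of 9 markers, 7 were listed by symbol, each above the filter, and their sum was 1026 to 1058 FPKM with DMSO and 1268 to 1302 FPKM with DADA. Each of these markers had a higher mean with DADA. The largest difference was in *Cd2*, from 170.3 to 287.2 FPKM, and the smallest in *Cd3g*, from 215.9 to 227.5 FPKM. The sum moved with the treatment, and its part in the members' changes was not tested. In bulk libraries, fewer cells of a type and less RNA per cell cannot be told apart. The 12 myeloid and dendritic cell markers summed to 0.154 to 0.548 FPKM with DMSO and 0.322 to 0.891 FPKM with DADA, with 4 of them at 0 throughout. At these trace levels *Mpeg1*, *Xcr1*, *Itgam* and *Flt3* were each higher in every DADA library, at no more than 0.215 FPKM. These genes, like *Foxp3* and *Klrb1c* below, were named after their values were seen. Other markers of the myeloid and dendritic list went both ways, with overlapping groups. The DADA mean of *Fcgr3* was lower (0.189 against 0.244 FPKM) and that of *Cd14* higher (0.112 against 0.0459 FPKM). *Lyz2* and *Siglech* were above 0 only in DMSO 3. The 8 B cell markers summed to 2.64 to 3.56 FPKM with DMSO and 2.36 to 3.12 FPKM with DADA, nearly all of it *Cd79b*, with *Pax5* and *Blk* at 0 in every library. The 6 erythroid markers summed to 0.0920 to 0.400 FPKM with DMSO and 0.0726 to 0.425 FPKM with DADA. *Cd4* stayed at or below 0.411 FPKM, and the 3 genes of the CD4 T cell list summed to 16.1 to 17.2 FPKM with DMSO and 15.2 to 15.7 FPKM with DADA, mostly *Zbtb7b*, while *Foxp3* was higher with DADA (0.187 to 0.268 FPKM) than with DMSO (0.0426 to 0.103 FPKM). The 4 genes of the NK cell list summed to 13.3 to 14.2 FPKM with DMSO and 10.1 to 11.2 FPKM with DADA, mostly *Eomes*, which activated CD8 T cells also express. *Klrb1c*, of the same list, was higher with DADA (0.144 to 0.249 FPKM) than with DMSO (0 to 0.0484 FPKM). The part of these markers in the results was not tested. The estimated depth was 13670000 to 16240000 mapped fragments with DMSO and 14680000 to 18510000 with DADA, and the part of this difference in the results was not tested.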

How the data were processed

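Bulk RNA-seq libraries of mouse splenic CD8+ T cells, 4 with DMSO and 4 with DADA, were grouped by their titles. The authors deposited FPKM values for 22520 genes and assembled transcripts. The processing notes of the submitters list HISAT2 2.0.5, StringTie 1.3.3, SAMtools 0.1.18, Picard 1.41, FastQC 0.11.9 and CASAVA 1.8.2 without their roles, and the labels and the paper name different library kits. The annotation release is not given in the sources used here.

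Genes reaching 1 FPKM in at least 4 libraries were analysed as log2(FPKM + 1), which understates the change of low genes, with limma 3.58.1 in R 4.3.3 (lmFit, 1 term for DADA, eBayes with trend, Benjamini-Hochberg over 10666 genes, threshold 0.05). FPKM carries no counts. Of the low values of 4431 genes with a single GENCODE M21 transcript, 41.0% to 45.7% lay within 0.1 of a whole fragment. By chance, 20% would do so at a fixed depth. Each depth was the one with the largest excess over that share among many tried, so the comparison with 20% is not a test. Depth is therefore only estimated, and a test on counts was left out. No 2 libraries of a group were copies of each other, with at most 7 equal values among the tested genes.

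The members and lists were chosen with earlier results of these data known. Named were the 10 members, the 2 largest called changes in each direction of each list, and the 3 genes most correlated with each of the 3 members that changed most, of which 1 is not reported here. Genes named outside this rule are marked or name a list's makeup. The alternatives were another pseudocount (0.1), other filters and scalings, eBayes without trend, a block for the replicate number, leaving out each library, and no assembled transcripts. Python 3.11.15 and matplotlib 3.10.9 were used for the rest.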

Additional observations from a re-analysis of the deposited data

Results flagged for a closer look

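Dixon's ratio divides the distance of an extreme library from its nearest neighbour by the whole range of the 4 values. Among 68 sets of 4 values, it passed its 95% limit in 2, and chance alone would pass it in about 1 of 20. *Tlr7* had 0.239 FPKM in DMSO 2, below the 0.352 to 0.373 FPKM of DMSO 1, 3 and 4 (ratio 0.842). *Csf2* had 80.0 FPKM in DMSO 4, below the 83.9 to 84.5 FPKM of DMSO 1 to 3 (ratio 0.852). Neither is 1 of the 10 members, for which no set passed the limit.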

How the results depend on the processing

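The 7 called members kept their direction and an adjusted p-value under 0.05 in each of the 17 alternatives, with log2 fold changes of -0.46 to -0.42 for *Nfkb1*, -0.54 to -0.48 for *Nfkb2*, 0.30 to 0.36 for *Rela*, 0.51 to 0.56 for *Nfkbia*, 0.32 to 0.41 for *Nfkbie*, 0.35 to 0.41 for *Nfkbiz* and 0.99 to 1.06 for *Tnfaip3*. *Rel*, *Relb* and *Nfkbib* were called in none of them. Rescaling to the same total (TPM) turned the sign of *Rel* (0.01) and *Relb* (0.0043). The FPKM totals were 450473 to 456939 in the DMSO libraries and 438299 to 449480 in the DADA libraries. This rescaling therefore raises the DADA values relative to the DMSO values. With each library left out, *Relb* ranged from -0.07 to 0.0019, the latter without DADA 3. The count of the noncanonical list was 1 to 2 with each library left out, through *Traf2*. The genes called numbered 5741 (mean of at least 5 FPKM, 8190 tested) to 7868 (no filter, 16167 tested), against 7064.

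Same-numbered libraries of the 2 groups did not deviate together (correlations of -0.12 to 0.095, with 1 of 8 libraries closest to its own number). Low correlations cannot exclude a weak pairing, and whether the samples were paired is not stated. With the replicate block, 6995 genes were called and the same 7 members passed. The exact depth is unknown, which limits the lowest genes most.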
